A study of Mus musculus with 9 samples.

Results

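The heparan and chondroitin sulfate genes described here are the 41 of 18329 genes in the deposited table whose symbols belong to the families of chain-building enzymes, carbohydrate sulfotransferases, extracellular sulfatases, glypicans and syndecans. They were chosen by symbol alone and measured in all 9 libraries of the study. RNA was sequenced from neuroglial progenitors of the mouse TVZ, the ventricular zone that lines the cavity of the diencephalon, taken at postnatal day 1 from untreated Nestin-CFPnuc mice on a C57/BL6 background. All groups carried this transgene, in which the Nestin promoter drives cyan fluorescent protein, and flow cytometry on that protein and on CD133 gave CD133+Nestin+, Nestin+ and CD133+ cells with 3 libraries each. Whether a single-marker sort was also negative for the other marker is not given. The reporter follows promoter activity and not nestin protein, and whether animals were pooled is not given either. The labels also give a passage of 1, 2 or 3, equal to the replicate number, so the libraries of each group differ in passage.

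Heparan sulfate and chondroitin sulfate are long sugar chains that hang from core proteins at the cell surface and in the matrix. A xylosyltransferase starts the chain on a serine of the core, polymerases extend it, and sulfotransferases add sulfate at defined positions of the sugars. The sulfation pattern sets which growth factors and morphogens a chain can hold, among them fibroblast growth factors, WNT and hedgehog proteins, and extracellular sulfatases can edit that pattern after the chain has reached the surface. In the developing brain these chains are part of the niche around neural progenitors.

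The sort markers followed the labels: Prom1, which encodes CD133, stood at 116 to 181 CPM in CD133+Nestin+, 39.3 to 58.1 in Nestin+ and 146 to 182 in CD133+ libraries, and Nes at 172 to 212 CPM in CD133+Nestin+, 157 to 195 in Nestin+ and 39.5 to 57.3 in CD133+ libraries. The radial glial and astroglial gene Slc1a3 was at 1012 CPM or more in every library. CPM are read counts scaled by each library's total, a unit inferred from the values, and 1 read corresponded to 0.0285 to 0.0344 CPM, so that a level of 3 reads lay at 0.086 to 0.103 CPM. CD133+Nestin+ replicate 2 stood apart on the second principal component, at 108 where the other libraries lay between -57.1 and 19.3, and it held the lowest value of its group for 27 of the 41 genes. The libraries numbered 2 were also most often lowest in Nestin+ cells, for 17 genes, and in CD133+ cells, for 21. In each group they also had the smallest share of their CPM total on the listed genes. That share was 65.9% against 87.6% and 81.0% in CD133+Nestin+ libraries. It was 70.4% against 87.3% and 77.6% in Nestin+ and 77.7% against 87.3% and 79.3% in CD133+ libraries. Its part in the low values was not tested. Of the 11 calls among these genes given below, none was lost without CD133+Nestin+ replicate 2. Of the 41 genes 40 reached 1 CPM in at least 3 libraries and were tested; Hs3st4, a 3-O-sulfotransferase gene, ranged from 0.0584 to 0.63 CPM and was not.

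Nestin+ cells had the highest mean level of 24 of the 41 genes, and CD133+ cells the lowest of 20. The highest of the 3 group means lay in CD133+Nestin+ libraries for 8 genes, in Nestin+ libraries for 24 and in CD133+ libraries for 9, and the lowest in CD133+Nestin+ libraries for 11, in Nestin+ libraries for 10 and in CD133+ libraries for 20. These counts include uncalled genes and Hs3st4, and the same counts over all genes were not made. Sulf1 alone was called against both other populations in CD133+Nestin+ cells. In Nestin+ cells Xylt1, Chst10, Chst2 and Chsy1 were higher and Hs6st2, Hs3st1 and Gpc3 lower than in CD133+ cells. Calls are from limma on log2(CPM + 1) with Benjamini-Hochberg adjustment over all 16143 genes tested and a threshold of 0.05, log2 changes carry SEs, and this scale understates the change of low genes.

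Against these calls stands the share of all genes called. Between CD133+Nestin+ and Nestin+ cells 1 of 40 genes was called, which is 2.5%, where 3.13% of all genes tested were called. Between CD133+Nestin+ and CD133+ cells 3 of 40 (7.5%) were called against 2.42% of all genes, and between Nestin+ and CD133+ cells 7 of 40 (17.5%) against 11.9%. The first share lies near the background. By direction, and out of 40 genes each time, the 1 gene higher in CD133+Nestin+ than in Nestin+ cells compares with 2.87% of all genes. The 1 higher and 2 lower in CD133+Nestin+ than in CD133+ cells compare with 0.297% and 2.12%. The 4 higher and 3 lower in Nestin+ than in CD133+ cells compare with 2.45% and 9.42%. Replicate numbers, which name the sort in the labels and equal the labelled passage, so that sort and passage cannot be told apart, paired the libraries across groups. When they entered the fit as a block, the calls were 2 against 6.09% of all genes, 5 against 4.81% and 13 against 19.2% in the same order. The median log2 change was -0.34 for the 40 genes and -0.04 for all genes in CD133+Nestin+ versus Nestin+, 0.14 and -0.06 in CD133+Nestin+ versus CD133+, and 0.38 and -0.02 in Nestin+ versus CD133+. Each population enters 2 of the comparisons, which are therefore not independent of each other. The authors' deposited table, at a step-up false discovery rate of 0.05, held 1, 2 and 7 of the 41 genes in the same order, against 2.59%, 0.955% and 9.07% of its genes. Its 7 genes between Nestin+ and CD133+ cells were the same 7 as here, and Hs6st2 was not among its 2 between CD133+Nestin+ and CD133+ cells. Groups did not overlap for 13 of the 40 genes (32.5%) in the first comparison, 11 (27.5%) in the second and 22 (55.0%) in the third. Of all genes, 17.3%, 17.5% and 33.0% did not overlap.

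**Figure D1:**
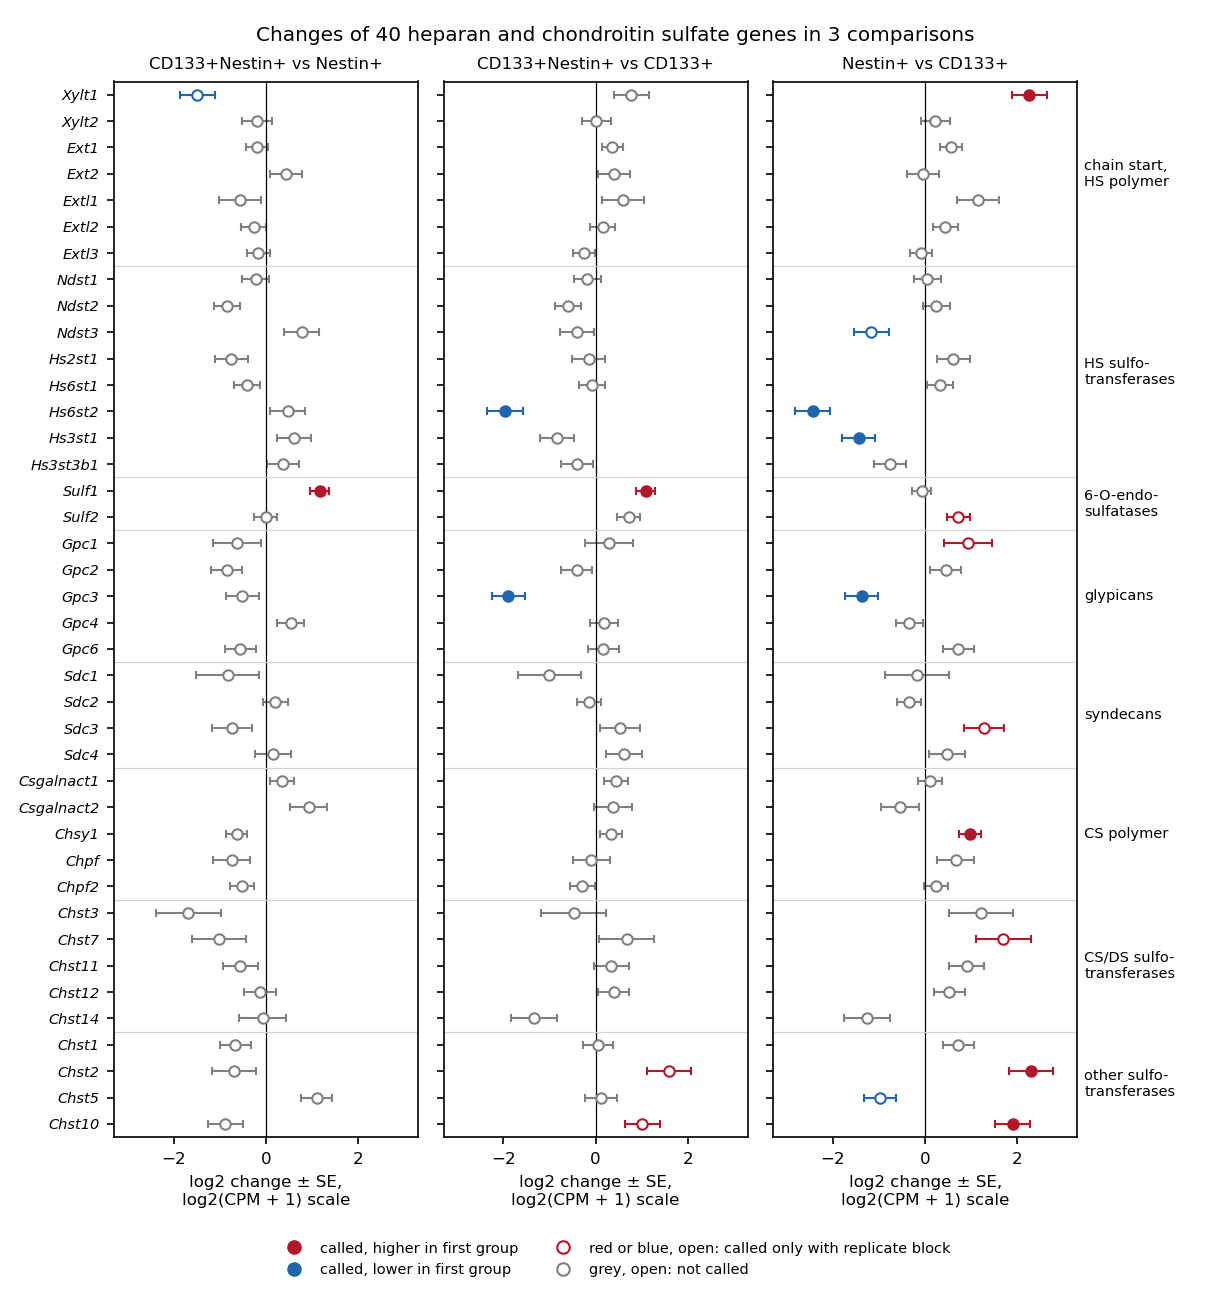
Log2 change with its SE (x axis, log2(CPM + 1) scale) of the 40 tested genes (rows, grouped by role) in the 3 comparisons. Filled symbols are called genes, 1 in CD133+Nestin+ versus Nestin+, 3 in CD133+Nestin+ versus CD133+ and 7 in Nestin+ versus CD133+, and open colored symbols are genes called only with the replicate number as a block.

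Of the enzymes that remove sulfate, Sulf1 was higher in CD133+Nestin+ cells than in both other populations, and Sulf2 was not called. Sulf1 and Sulf2 encode secreted endosulfatases that cut 6-O-sulfate groups from finished heparan sulfate chains. Sulf1 (chromosome 1, 12692277 to 12861192, GRCm38) stood at 272, 309 and 321 CPM in the CD133+Nestin+ libraries, at 136, 132 and 132 CPM in the Nestin+ libraries and at 147, 139.9 and 136 CPM in the CD133+ libraries. Every CD133+Nestin+ library lay above every library of the other groups, and those groups were close to each other. The log2 change was 1.16 ± 0.21 against Nestin+ cells (limma adjusted p = 0.0137) and 1.08 ± 0.21 against CD133+ cells (limma adjusted p = 0.0228), and -0.08 between Nestin+ and CD133+ cells. The call against Nestin+ was lost without CD133+Nestin+ replicate 3 or any of the 3 Nestin+ libraries, at an adjusted p of 0.0552 to 0.0855. The call against CD133+ was lost without CD133+Nestin+ replicate 3 or any of the 3 CD133+ libraries, at 0.0737 to 0.125, while the change itself stayed between 1.03 and 1.23 in both comparisons whichever library was left out. With only the libraries numbered 2 and 3 the changes were 1.25 and 1.18 and neither was called, at adjusted p of 0.081 and 0.103. The authors' deposited table also gave Sulf1 a step-up false discovery rate under 0.05 in both comparisons.

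Sulf2 (chromosome 2, 166073089 to 166155663) was measured at 371, 285 and 310.0 CPM in CD133+Nestin+ libraries, 346, 253 and 379 CPM in Nestin+ libraries and 210.1, 186 and 189.7 CPM in CD133+ libraries. Both populations sorted on the reporter lay above all CD133+ libraries and overlapped each other. The log2 change was 0.71 ± 0.25 in CD133+Nestin+ versus CD133+ (adjusted p = 0.238) and 0.72 ± 0.25 in Nestin+ versus CD133+ (adjusted p = 0.0986), and only the second was called with the replicate block, at an adjusted p of 0.0203. Exons of Sulf2 overlap the opposite-strand gene Ncoa3, and whether counting used strand is not given. Exons of Chpf2, Chsy1, Gpc1, Hs3st4, Hs6st1 and Sdc3 also overlap an opposite-strand gene.

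The ratio of the 2 endosulfatase transcripts within a library, which does not depend on how libraries were scaled, was lowest in all Nestin+ libraries. Sulf1 to Sulf2 was 0.734, 1.08 and 1.04 in CD133+Nestin+ libraries, 0.394, 0.523 and 0.349 in Nestin+ libraries and 0.7, 0.753 and 0.719 in CD133+ libraries. For Nestin+ against either other group the two-sided p of an exact permutation test was 0.1, the smallest possible with 3 against 3 libraries. For CD133+Nestin+ against CD133+ cells the exact p was 0.2. The ratios were picked after the levels had been seen, and over the 9 tests made on 3 such ratios the Benjamini-Hochberg adjusted values were 0.15 or more. Per kilobase of annotated exon, the mean over all libraries was 17.0 CPM for Sulf1 and 47.9 CPM for Sulf2.

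**Figure D2:**
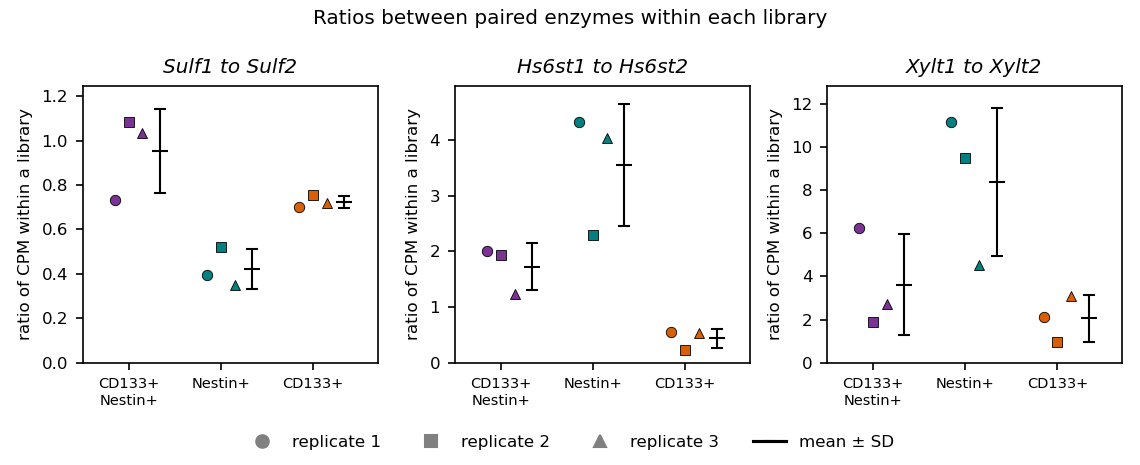
Ratio of CPM within a library (y axes) for Sulf1 to Sulf2, Hs6st1 to Hs6st2 and Xylt1 to Xylt2 in the 3 populations (x axis), with 1 symbol per library and the mean ± SD beside them. Hs6st1 to Hs6st2 lay between 1.24 and 2.01 in CD133+Nestin+, between 2.3 and 4.32 in Nestin+ and between 0.231 and 0.547 in CD133+ libraries.

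Among the 9 heparan sulfate sulfotransferase genes, of which 8 were tested, 2 were called, Hs6st2 and Hs3st1, both highest in CD133+ cells. Both were lower in Nestin+ versus CD133+, where 9.42% of all genes were called lower. Hs6st2 was also lower in CD133+Nestin+ versus CD133+, where 2.12% of all genes were. Hs6st2 (chromosome X, 51387212 to 51681856), a 6-O-sulfotransferase gene, stood at 6.31, 3.94 and 8.22 CPM in CD133+Nestin+ libraries, 3.64, 5.83 and 2.96 CPM in Nestin+ libraries and 21.6, 41.5 and 19.9 CPM in CD133+ libraries. All CD133+ libraries lay above all others. Endothelial markers were also highest there, with a sum of 26.9 to 35.6 CPM in CD133+Nestin+, 14.5 to 24.7 in Nestin+ and 330.5, 443.6 and 648 in the CD133+ libraries. Ependymal markers summed to 944.6, 910.3 and 1223 CPM in CD133+Nestin+ libraries, 172, 142 and 181 CPM in Nestin+ libraries and 1098.6, 2269.9 and 1117 CPM in CD133+ libraries, where the highest sum was in the library with the highest Hs6st2. The part of these markers was not tested. Hs6st2 fell by 1.97 ± 0.38 on the log2 scale in CD133+Nestin+ versus CD133+ (adjusted p = 0.0221) and by 2.44 ± 0.38 in Nestin+ versus CD133+ (adjusted p = 0.00197). The second call held in all fits that left out 1 library, whereas the first was lost without any of the 3 CD133+ libraries, at an adjusted p of 0.055 to 0.0994, and with only the libraries numbered 2 and 3, at 0.0633. Its relative Hs6st1 ranged from 7.64 to 12.7 CPM in CD133+Nestin+, from 11.9 to 15.7 in Nestin+ and from 9.59 to 11.8 in CD133+ libraries and was not called in any comparison. The ratio of Hs6st1 to Hs6st2 averaged 1.73 ± 0.43 in CD133+Nestin+, 3.55 ± 1.09 in Nestin+ and 0.437 ± 0.179 in CD133+ libraries (SD, n = 3), with no overlap between any groups and an exact permutation p = 0.1 for each pair.

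Hs3st1, whose enzyme adds the rare 3-O-sulfate known from anticoagulant heparan sulfate, was low throughout, at 4.78, 1.56 and 4.55 CPM in CD133+Nestin+ libraries, 1.65, 1.76 and 2.19 CPM in Nestin+ libraries and 6.68, 7.59 and 6.13 CPM in CD133+ libraries. CD133+ libraries were highest, and CD133+Nestin+ replicate 2 lay with the Nestin+ libraries. The fall in Nestin+ versus CD133+ cells was called, at -1.45 ± 0.37 (adjusted p = 0.0252), and was lost without any of the 6 libraries compared, at 0.0615 to 0.104, and with only the libraries numbered 2 and 3, at 0.113. Ndst3, an N-deacetylase and N-sulfotransferase gene of the nervous system, stood at 6.06, 11.1 and 7.32 CPM in CD133+Nestin+, 4.33, 5.05 and 3.48 in Nestin+ and 6.16, 14.7 and 13.7 in CD133+ libraries. It was called only with the replicate block, in Nestin+ versus CD133+ (-1.17 ± 0.38, adjusted p = 0.0716, and 0.0242 with the block). Hs2st1, the single 2-O-sulfotransferase gene and the highest uncalled gene of this group, had 33.2, 14.1 and 27.3 CPM in CD133+Nestin+, 43.9, 38.1 and 39.3 in Nestin+ and 41.2, 19.5 and 22 in CD133+ libraries. Ndst1, Ndst2 and Hs3st3b1 were not called in any comparison, with changes of -0.85 to 0.36 in CD133+Nestin+ versus Nestin+, -0.61 to -0.19 in CD133+Nestin+ versus CD133+ and -0.77 to 0.24 in Nestin+ versus CD133+.

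Of the 2 xylosyltransferase genes, which start the chains, Xylt1 was called, in Nestin+ versus CD133+, where 2.45% of all genes were called higher. Xylt1 (chromosome 7, 117380979 to 117673580) stood at 52.7, 24.1 and 29.9 CPM in CD133+Nestin+ libraries, 101, 110.4 and 79.7 CPM in Nestin+ libraries and 26.6, 10.7 and 25 CPM in CD133+ libraries. Every Nestin+ library lay above every library of the other groups, as was the case for the summed oligodendrocyte precursor markers, whose part was not tested. The rise in Nestin+ versus CD133+ cells was 2.26 ± 0.38 (adjusted p = 0.00284) and was called whichever library was left out. CD133+Nestin+ cells were lower than Nestin+ cells by a log2 change of -1.49 ± 0.38, which was not called (adjusted p = 0.0654) and was called with the replicate block, at 0.0195. Xylt2, the broadly expressed relative, ranged from 8.12 to 17.6 CPM over all libraries with no call, and the Xylt1 to Xylt2 ratio averaged 3.62 ± 2.33 in CD133+Nestin+, 8.37 ± 3.44 in Nestin+ and 2.05 ± 1.07 in CD133+ libraries (SD, n = 3). The polymerase genes Ext1 and Ext2 and their relatives Extl1, Extl2 and Extl3 were not called in any comparison. Ext1 and Ext2, whose products elongate the heparan sulfate chain together, stood at 28 to 48.4 and 20.2 to 54.3 CPM over all 9 libraries, and Extl2, the highest of this group, at 92.5, 56.1 and 66.4 CPM in CD133+Nestin+, 112, 70.2 and 77.5 in Nestin+ and 72, 59.3 and 57.9 in CD133+ libraries.

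**Figure D3:**
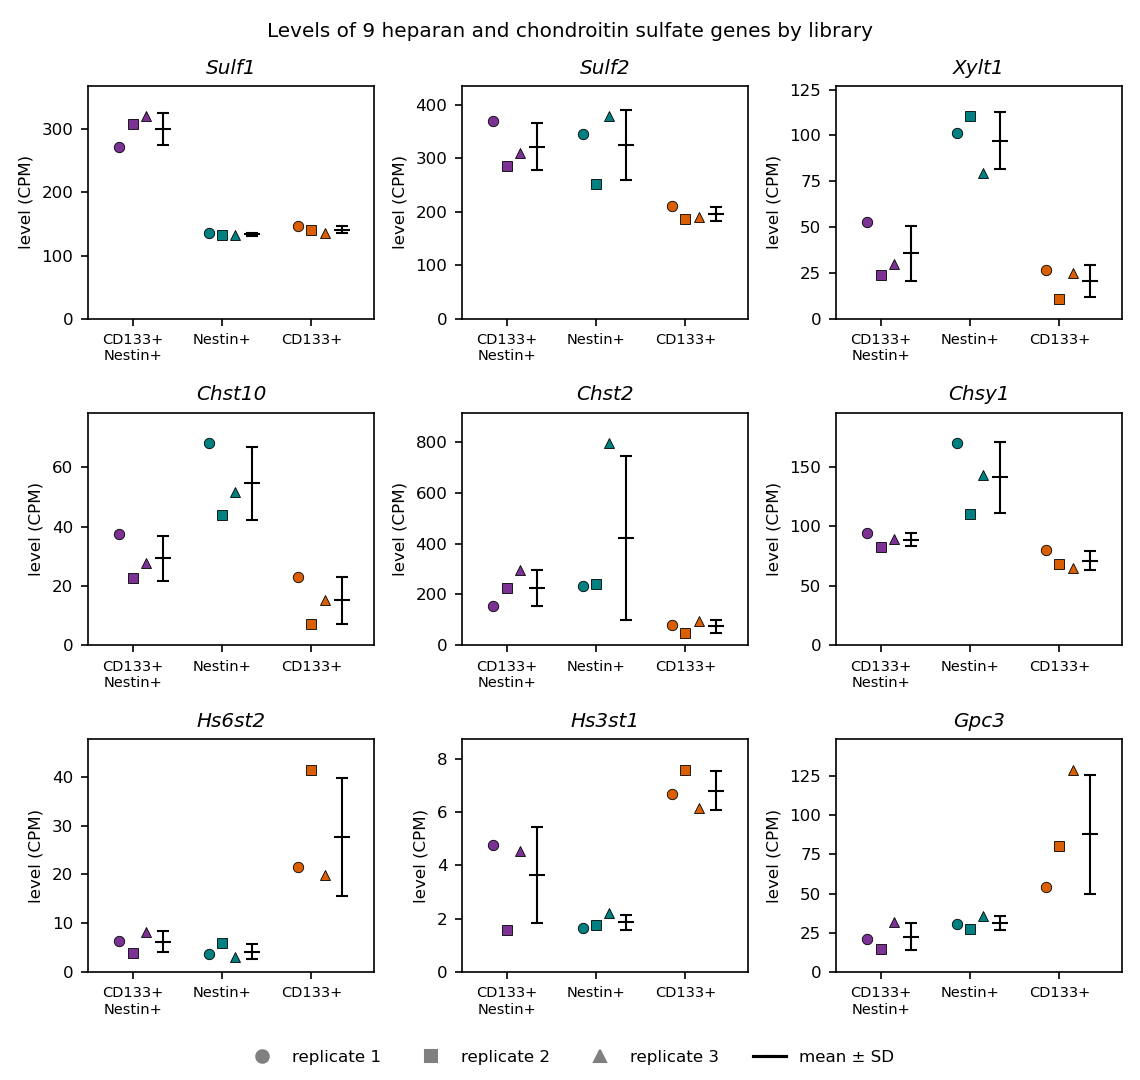
Level in CPM (y axes, from 0) of Sulf1, Sulf2, Xylt1, Chst10, Chst2, Chsy1, Hs6st2, Hs3st1 and Gpc3 in each library of the 3 populations (x axis), with the mean ± SD beside the symbols. Sulf1 lay at 272 to 321 CPM in CD133+Nestin+ libraries and at 132 to 147 CPM in all others, and Chst2 reached 797 CPM in Nestin+ replicate 3 alone.

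Of the 9 core protein genes of the cell surface, 5 glypicans and 4 syndecans, Gpc3 was called. It was lower in CD133+Nestin+ and in Nestin+ than in CD133+ cells, where 2.12% and 9.42% of all genes were called lower. Glypicans are tied to the membrane by a lipid anchor, and Gpc3 (chromosome X, 52272426 to 52613950) is known as a regulator of hedgehog and WNT signalling and of body growth. Its levels were 20.8, 14.8 and 31.6 CPM in CD133+Nestin+ libraries, 30.5, 27.4 and 35.8 CPM in Nestin+ libraries and 53.9, 80.1 and 129 CPM in CD133+ libraries. All CD133+ libraries lay above all others. The summed mural and fibroblast markers were also highest there, though Acta2 of that list was not, and their part was not tested. The log2 change of Gpc3 was -1.90 ± 0.35 in CD133+Nestin+ versus CD133+ (adjusted p = 0.0176) and -1.38 ± 0.35 in Nestin+ versus CD133+ (adjusted p = 0.0269). The first was lost without CD133+ replicate 2 or 3, at 0.0677 and 0.0887, and the second without any Nestin+ library or CD133+ replicate 2 or 3, at 0.0595 to 0.113.

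Gpc3 and Hs6st2 lie near each other on chromosome X, with Gpc4 between them, and the 3 genes span 1.23 Mb. Gpc4, another glypican gene and the highest uncalled one, stood at 40, 53.2 and 50.6 CPM in CD133+Nestin+ libraries, 36.2, 21.4 and 44.4 in Nestin+ and 36, 51.6 and 39.5 in CD133+ libraries. No comparison was called, with a change of 0.53 ± 0.29 in CD133+Nestin+ versus Nestin+, 0.18 ± 0.29 in CD133+Nestin+ versus CD133+ and -0.35 ± 0.29 in Nestin+ versus CD133+. Gpc1, a glypican of the nervous system, stood at 51.8, 13.1 and 35.1 CPM in CD133+Nestin+, 55.1, 37.1 and 45 in Nestin+ and 46.3, 12 and 22.6 in CD133+ libraries. It was called only with the replicate block, in Nestin+ versus CD133+ (0.92 ± 0.52, adjusted p = 0.349, and 0.0485 with the block). Gpc6 ranged from 12.3 to 34.8 CPM and Gpc2 from 0.464 to 3.47 CPM over all libraries, neither with a call.

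Syndecans cross the membrane and carry their chains on the outer domain. Sdc4, a partner of integrins at focal adhesions, had the highest level per kilobase of exon of all 41 genes, at 158 CPM per kilobase averaged over the libraries, ahead of Sulf2 at 47.9 and Sdc2 at 43.3. It stood at 446, 447 and 461 CPM in CD133+Nestin+ libraries, 370.5, 246 and 734 CPM in Nestin+ libraries and 414, 228 and 269 CPM in CD133+ libraries. The double-marker libraries were close together and above all CD133+ libraries, whereas Nestin+ libraries lay both below and above them, and no comparison was called. Sdc3, the syndecan of the nervous system, stood at 124, 71.3 and 76.1 CPM in CD133+Nestin+, 196, 119 and 137 in Nestin+ and 99.4, 28.6 and 77.8 in CD133+ libraries. Its change of 1.27 ± 0.43 in Nestin+ versus CD133+ was not called (adjusted p = 0.088) and was called with the block, at 0.00826. Sdc1 was listed at 0.0332 CPM in CD133+Nestin+ replicate 2, under the level of 3 reads, and at 4.69 to 8.66 CPM in all other libraries. Neither Sdc1 nor Sdc2, at 109.9 to 202 CPM over all libraries, was called.

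Of the 5 genes for chondroitin chain synthesis, 1 was called, in Nestin+ versus CD133+, where 2.45% of all genes were called higher. Chsy1 encodes a chondroitin synthase that extends the chain, and it stood at 94.3, 82.7 and 89.6 CPM in CD133+Nestin+ libraries, 170.2, 110.1 and 143 CPM in Nestin+ libraries and 79.9, 68.1 and 64.9 CPM in CD133+ libraries. The 3 groups did not overlap, in the order Nestin+, CD133+Nestin+ and CD133+. Its rise in Nestin+ versus CD133+ was 0.97 ± 0.24 (adjusted p = 0.0212), and the call was lost without Nestin+ replicate 1 or 3 or CD133+ replicate 2 or 3, at 0.0708 to 0.0899, and with only the libraries numbered 2 and 3, at 0.117. Exons of Chsy1 overlap the opposite-strand gene Gm26827. Csgalnact1, which adds the sugar that commits a chain to chondroitin, was the highest uncalled gene of this group at 62.6, 83.5 and 48 CPM in CD133+Nestin+, 58.7, 44.8 and 46.5 in Nestin+ and 54.9, 39.3 and 45.5 in CD133+ libraries. Csgalnact2, Chpf and Chpf2 were not called in any comparison.

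None of the 5 chondroitin and dermatan sulfotransferase genes was called by limma, while between Nestin+ and CD133+ cells 3 of them, Chst7, Chst11 and Chst14, had an unadjusted p under 0.05, as did 3720 of all 16143 genes. Chst7, a chondroitin 6-O-sulfotransferase gene, stood at 10.6, 1.16 and 5.71 CPM in CD133+Nestin+, 18.9, 7.89 and 7 in Nestin+ and 3.08, 1.45 and 3.19 in CD133+ libraries. Its change of 1.69 ± 0.59 in Nestin+ versus CD133+ (adjusted p = 0.0953) was called with the replicate block, at 0.0159. Chst14, which sulfates dermatan sulfate, lay the other way, at 2.23, 0.166 and 3.99 CPM in CD133+Nestin+, 0.996, 1.89 and 2.81 in Nestin+ and 6.96, 4.21 and 6.4 in CD133+ libraries, with no call. Chst12, a chondroitin 4-O-sulfotransferase gene and the highest of the group, ranged from 11.7 to 34 CPM, and Chst11 of the same function from 9.27 to 35.1 CPM.

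The remaining 4 sulfotransferase genes act on other sugars, and Chst2, Xylt1 and Chst10 had the 3 largest positive changes of the 40 genes in Nestin+ versus CD133+ cells. Chst10 encodes the enzyme that completes HNK-1, a sulfated sugar epitope on neural adhesion molecules. It stood at 37.4, 22.5 and 27.9 CPM in CD133+Nestin+ libraries, 68.2, 44 and 51.6 CPM in Nestin+ libraries and 23, 7.23 and 15.1 CPM in CD133+ libraries. Nestin+ libraries lay above all others. The rise in Nestin+ versus CD133+ cells was 1.90 ± 0.38 (adjusted p = 0.00751) and was called whichever library was left out. The change in CD133+Nestin+ versus CD133+ was 1.01 ± 0.38 (adjusted p = 0.273), called with the block at 0.0397 and not called with the block when CD133+Nestin+ replicate 2 was left out.

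Chst2, which puts 6-O-sulfate on N-acetylglucosamine, as in keratan sulfate, stood at 156, 226 and 296 CPM in CD133+Nestin+ libraries, 235, 241 and 797 CPM in Nestin+ libraries and 81.6, 46.5 and 96.9 CPM in CD133+ libraries. All CD133+ libraries were lowest, and Nestin+ replicate 3 was far above the other libraries. The rise in Nestin+ versus CD133+ was 2.30 ± 0.48 (adjusted p = 0.00932), and without CD133+ replicate 2 the adjusted p was 0.0544. In CD133+Nestin+ versus CD133+ the change was 1.59 ± 0.48 (adjusted p = 0.142), called with the block at 0.0178. Chst5, a related enzyme gene and the highest uncalled gene here, had 18.4, 17.8 and 14.7 CPM in CD133+Nestin+, 10.3, 6.1 and 6.29 in Nestin+ and 16.3, 22.7 and 9.98 in CD133+ libraries. It was called only with the block, in Nestin+ versus CD133+ (-0.98 ± 0.34, adjusted p = 0.0937, and 0.0396 with the block). Chst1 ranged from 7.72 to 20.6 CPM with no call.

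The stretch before the transcription start is shown for the 6 of the 8 called genes with an entry in the RefSeq promoter table, as 250 bases upstream of the most upstream listed start on GRCm38.p6, since these genes moved in opposite directions between Nestin+ and CD133+ cells. Capitals mark CANNTG, the E-box bound by basic helix-loop-helix factors, which reads the same on both strands. The first 3 genes were lower in Nestin+ cells, and the last 3 were higher.
Hs6st2 (chrX:51681603-51681852, minus strand): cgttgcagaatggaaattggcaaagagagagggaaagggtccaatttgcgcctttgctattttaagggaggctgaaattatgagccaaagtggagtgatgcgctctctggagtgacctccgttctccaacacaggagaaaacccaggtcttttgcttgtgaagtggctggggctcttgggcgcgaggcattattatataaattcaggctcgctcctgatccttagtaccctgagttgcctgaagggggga
Gpc3 (chrX:52613975-52614224, minus strand): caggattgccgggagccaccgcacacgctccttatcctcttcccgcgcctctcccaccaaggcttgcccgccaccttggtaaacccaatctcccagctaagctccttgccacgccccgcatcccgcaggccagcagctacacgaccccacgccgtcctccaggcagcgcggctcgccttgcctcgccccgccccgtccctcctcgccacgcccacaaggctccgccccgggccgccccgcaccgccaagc
Hs3st1 (chr5:39644632-39644881, minus strand): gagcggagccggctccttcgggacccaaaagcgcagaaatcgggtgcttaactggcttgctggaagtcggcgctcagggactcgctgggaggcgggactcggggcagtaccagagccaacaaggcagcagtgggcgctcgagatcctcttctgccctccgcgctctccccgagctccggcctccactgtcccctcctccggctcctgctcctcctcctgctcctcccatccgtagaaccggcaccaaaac
Chst10 (chr1:38898161-38898410, minus strand): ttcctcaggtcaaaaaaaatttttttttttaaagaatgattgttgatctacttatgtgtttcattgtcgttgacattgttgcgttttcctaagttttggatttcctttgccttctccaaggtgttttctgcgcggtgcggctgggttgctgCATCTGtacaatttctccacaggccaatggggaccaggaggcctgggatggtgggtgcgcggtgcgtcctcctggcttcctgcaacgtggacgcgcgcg
Chst2 (chr9:95407271-95407520, minus strand): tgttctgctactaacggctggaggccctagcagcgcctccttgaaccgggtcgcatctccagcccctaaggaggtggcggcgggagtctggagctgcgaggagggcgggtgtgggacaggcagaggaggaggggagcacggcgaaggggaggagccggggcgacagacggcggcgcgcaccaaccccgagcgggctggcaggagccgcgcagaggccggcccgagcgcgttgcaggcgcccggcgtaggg
Chsy1 (chr7:66109242-66109491, plus strand): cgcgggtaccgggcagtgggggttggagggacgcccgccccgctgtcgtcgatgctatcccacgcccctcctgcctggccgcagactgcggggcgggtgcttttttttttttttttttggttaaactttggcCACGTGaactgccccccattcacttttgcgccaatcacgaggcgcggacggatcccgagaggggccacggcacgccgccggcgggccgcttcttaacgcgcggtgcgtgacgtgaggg

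CANNTG was present once each in the windows of Chst10 and Chsy1 and in none of the other 4, while 66.2% of the 32851 windows of this length in the table held it. GGGCGG, the GC box, was found on either strand 3 times in Gpc3, 2 times in Chsy1 and 1 time in Chst2, and in 32.7% of all windows. TATAAA was found in Hs6st2 and in 12.4% of all windows. No E-box match overlapped a GC box. The windows held 7 CG dinucleotides in Hs6st2, 25 in Gpc3, 19 in Hs3st1, 13 in Chst10, 27 in Chst2 and 30 in Chsy1, against a median of 6 over all windows. The windows of Hs6st2 and Hs3st1 lie inside the longer genes of the GENCODE annotation. That of Chst2 lies upstream of its GENCODE start at 95406722 and does not adjoin it.

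Genes that supply or carry these chains, taken from lists of the same pathway, were called in part. Of 6 measured genes on the linkage region list, B4galt7, B3gat3, Fam20b and Pxylp1, which act on the linkage region of the chains, were not called in any comparison. The 2 others rose in Nestin+ versus CD133+ cells, where 2.45% of all genes were called higher, and were not called in the other comparisons. These were B3gat1, with a mean of 26.6 ± 7.39 CPM in Nestin+ cells and 6.80 ± 3.25 CPM in CD133+ cells, and B3gat2, with 43.9 ± 11.5 CPM in Nestin+ cells and 9.51 ± 5.40 CPM in CD133+ cells (SD, n = 3). They had log2 changes of 1.89 ± 0.37 (adjusted p = 0.00715) and 2.22 ± 0.44 (adjusted p = 0.00719). Their enzymes add the glucuronic acid of the HNK-1 epitope that the Chst10 enzyme then sulfates. Ugdh, which makes the UDP-glucuronic acid used for both kinds of chain, rose by 1.40 ± 0.25 (adjusted p = 0.00398). It was the only call without the block among 10 genes for sugar nucleotide and sulfate supply. Slc35b2 (0.63 ± 0.33, adjusted p = 0.295) and Papss2 (1.23 ± 0.51, adjusted p = 0.17) of this list were called only with the block, at 0.0275 and 0.0255. Dse, the epimerase that turns chondroitin into dermatan sulfate, fell by 1.33 ± 0.37 (adjusted p = 0.0391), the only call among 4 genes of its list, beside 9.42% of all genes called lower. This call was lost without any of the 6 libraries compared, at 0.0793 to 0.129, and with only the libraries numbered 2 and 3. In CD133+Nestin+ versus CD133+ Dse was called only with the replicate block (-1.45 ± 0.37, adjusted p = 0.0775, and 0.0373 with the block). Of 10 tested receptors for these chains Fgfr3 alone was called, higher in Nestin+ cells at 2.02 ± 0.36 (adjusted p = 0.00379), and with the block also in CD133+Nestin+ cells, lower than in Nestin+ cells at -0.98 ± 0.36 (adjusted p = 0.033 with the block) and higher than in CD133+ cells at 1.04 ± 0.36 (adjusted p = 0.0313 with the block). Nrp1, a co-receptor for semaphorins and vascular endothelial growth factor, was called only with the block, lower than in CD133+ cells both in CD133+Nestin+ cells (-1.06 ± 0.35, adjusted p = 0.203, and 0.0417 with the block) and in Nestin+ cells (-1.05 ± 0.35, adjusted p = 0.0848, and 0.0151 with the block). The medians of these 4 lists lay between 0.19 and 0.46 in Nestin+ versus CD133+, beside -0.02 for all genes.

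Chondroitin sulfate core proteins were divided by type. Between Nestin+ and CD133+ cells all 8 measured genes were called, 6 higher and 2 lower, with a list median of 1.84, where 11.9% of all genes were called. Ncan, the core of the brain matrix proteoglycan neurocan, stood at 4613, 3126 and 5375 CPM in CD133+Nestin+ libraries, 8238, 3951 and 7215 CPM in Nestin+ libraries and 2145, 752 and 1935 CPM in CD133+ libraries. Bcan, for the related brevican, rose by 2.60 ± 0.42 (adjusted p = 0.00235), Cspg5 by 1.91 ± 0.38 (adjusted p = 0.00691) and Cspg4, the NG2 proteoglycan of oligodendrocyte precursors, by 2.40 ± 0.52 (adjusted p = 0.011). Ncan rose by 2.08 ± 0.47 (adjusted p = 0.0147). Its call was lost without Nestin+ replicate 1 or 3 or CD133+ replicate 2, and that of Cspg4 without Nestin+ replicate 2 or CD133+ replicate 2, at an adjusted p of up to 0.0633. The calls of Ptprz1 and Vcan were each lost without any of 5 single libraries, at an adjusted p of up to 0.214 for Ptprz1 and 0.181 for Vcan, and that of Vcan also with only the libraries numbered 2 and 3. Dcn and Bgn, the small proteoglycans of connective tissue, went the other way: Dcn averaged 0.280 ± 0.097 CPM in Nestin+ and 121 ± 62.9 CPM in CD133+ libraries. The change was -6.45 ± 0.43 for Dcn (adjusted p = 3.35e-05) and -3.09 ± 0.51 for Bgn (adjusted p = 0.00258).

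Between CD133+Nestin+ and CD133+ cells Dcn changed by -3.47 ± 0.43 (adjusted p = 0.00214) and Bgn by -3.11 ± 0.51 (adjusted p = 0.00897, and 0.0562 without CD133+ replicate 3). The brain matrix cores were not called, while with the block Ncan (1.54 ± 0.47) and Bcan (1.79 ± 0.42) were, at 0.00343 and 0.00536. Between CD133+Nestin+ and Nestin+ cells Dcn rose by 2.97 ± 0.43 (adjusted p = 0.00472) and Cspg4 fell by 2.30 ± 0.52 (adjusted p = 0.0374), a call lost without any of 6 single libraries, at 0.0534 to 0.167. The basement membrane heparan sulfate cores Hspg2, for perlecan, and Col18a1, for collagen XVIII, were lower in both populations sorted on the reporter than in CD133+ cells. They were 2 of 4 measured genes of their list, with list medians of -1.24 and -1.19. Of all genes, 2.12% were called lower in CD133+Nestin+ versus CD133+ and 9.42% in Nestin+ versus CD133+. Hspg2 was at 6.15, 4.87 and 6.36 CPM in CD133+Nestin+, 5.26, 5.96 and 4.78 in Nestin+ and 18.6, 18.6 and 25.1 in CD133+ libraries, a change of -1.67 ± 0.28 (adjusted p = 0.00967) in CD133+Nestin+ versus CD133+ and -1.77 ± 0.28 (adjusted p = 0.00191) in Nestin+ versus CD133+. Col18a1 changed by -2.14 ± 0.43 (adjusted p = 0.0256) and -3.58 ± 0.43 (adjusted p = 0.00046) in these comparisons. In CD133+Nestin+ versus CD133+ the Hspg2 call was lost without CD133+ replicate 3, at 0.0757, and with only the libraries numbered 2 and 3. The Col18a1 call in that comparison was lost without any of 5 single libraries, at 0.0515 to 0.138.

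**Figure D4:**
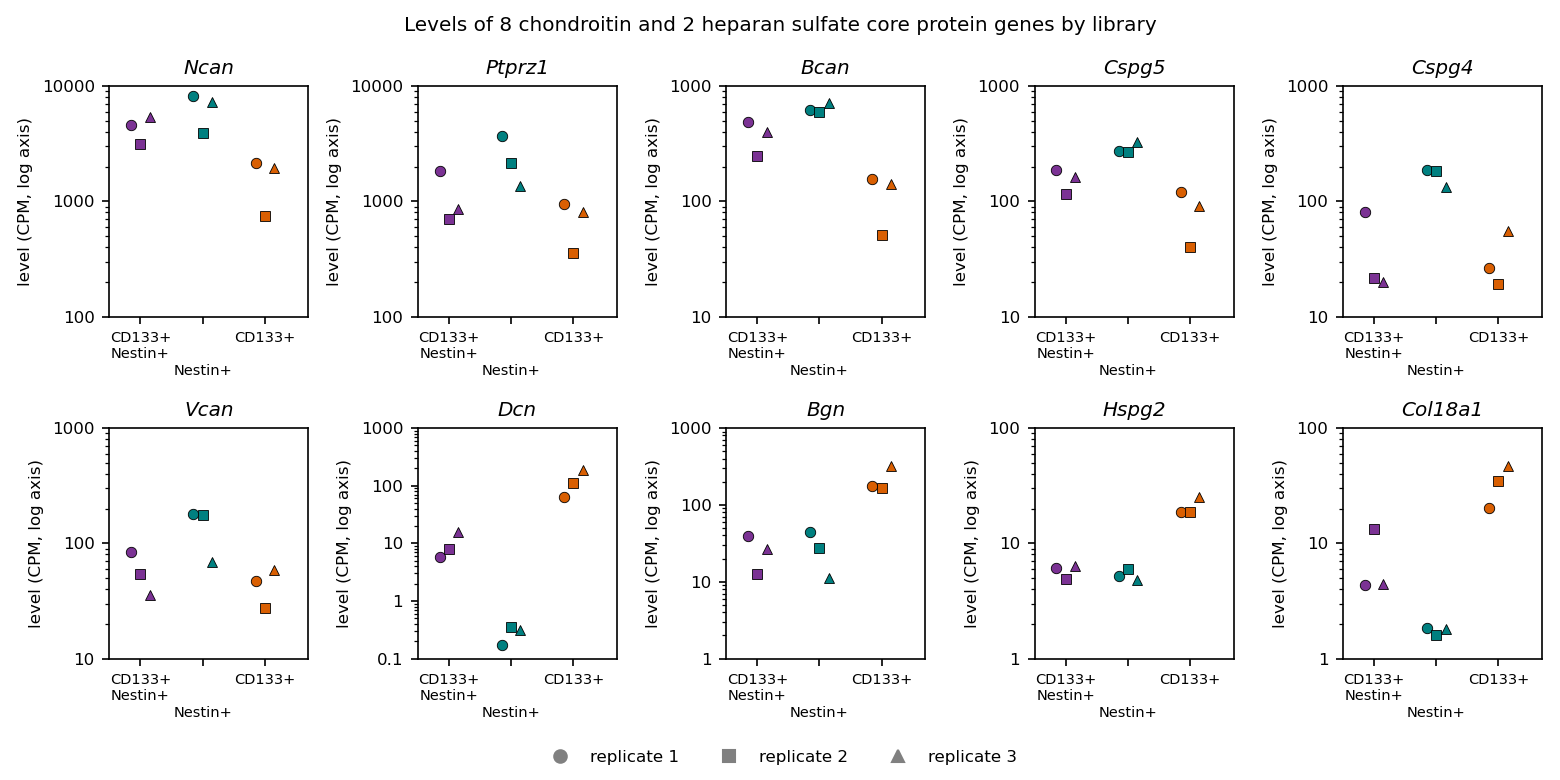
Level in CPM (y axes, log scale) of 8 chondroitin sulfate core protein genes and the heparan sulfate core genes Hspg2 and Col18a1 in each library of the 3 populations (x axis). Ncan, Bcan and Cspg5 were highest in Nestin+ libraries by their group means, while Dcn, Bgn, Hspg2 and Col18a1 were highest in every CD133+ library.

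Markers of other cell types moved with these results, and their part in them was not tested. Fewer cells of a type and less RNA per cell cannot be told apart in such bulk libraries. The genes that were highest in CD133+ cells (Hs6st2, Hs3st1, Gpc3, Dcn, Bgn, Hspg2 and Col18a1) lay beside high sums of non-neural markers in the same libraries. The endothelial sum given above rests on 4 of 5 listed markers. For 5 of 6 mural and fibroblast markers, a list that includes Dcn, the sum was 67.3 to 132 CPM in CD133+Nestin+, 35.2 to 46.9 in Nestin+ and 572.5 to 1236 in CD133+ libraries. Acta2 did not follow this sum, at 12.3, 4.06 and 11.6 CPM in CD133+Nestin+, 5.56, 3.6 and 3.07 in Nestin+ and 12, 4.29 and 4.5 in CD133+ libraries. All 6 microglial markers summed to 32.6 to 246 CPM in CD133+Nestin+, 26.2 to 80.9 in Nestin+ and 766 to 2161 in CD133+ libraries. All 4 erythroid markers summed to 49.1 to 109.5 CPM in CD133+Nestin+, 24 to 309.9 in Nestin+ and 719.9 to 1436 in CD133+ libraries.

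All 6 ependymal markers entered the sum given above. Beside the genes highest in Nestin+ cells, all 6 oligodendrocyte precursor markers, which include Cspg4, summed to 113 to 451 CPM in CD133+Nestin+, 577 to 1067 in Nestin+ and 59.9 to 139 in CD133+ libraries. The sums of 4 of 5 neuronal markers were 43 to 136 CPM in CD133+Nestin+, 127 to 181 in Nestin+ and 22.8 to 92.1 in CD133+ libraries. Stmn2 of that list did not follow its sum, at 36.5, 11.6 and 24.1 CPM in CD133+Nestin+ and 29.2, 17.7 and 8.17 in Nestin+ libraries. The sums of 6 astroglial and tanycyte markers were 2189.9 to 4894 CPM in CD133+Nestin+, 4296 to 7308 in Nestin+ and 1233 to 4087 in CD133+ libraries. Slc1a3 alone was at 6128, 3635 and 4050 CPM in Nestin+ libraries. Gfap went the other way, at 70.5, 27.3 and 48.9 CPM in Nestin+ and 275, 83.9 and 157 in CD133+ libraries. Beside Sulf1, 2 of 4 choroid plexus markers, Folr1 and Clic6, also had their highest sum in CD133+Nestin+ cells, at 35.2 to 40.2 CPM, against 4.5 to 6.1 in Nestin+ and 18.7 to 30.8 in CD133+ libraries. No measured marker was under 0.1 CPM in all 3 libraries of a group.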

How the data were processed

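Sequenced RNA of 9 sorted samples was analysed. The authors' deposited values were read as CPM plus 0.0001, a unit inferred from the values: low values lay near steps of 0.0285 to 0.0344 CPM, and 45.4% to 55.6% of them were whole multiples within 0.02 reads, so whole reads were not recovered. STAR 2.5.3a, Partek 8.0, bcl2fastq, limma and the mm10 build appear in the submitters' processing notes. Gene assignment and strand use are not given in the sources used here. Between 65.9% and 87.6% of each library's CPM total fell on genes in the table. The authors' deposited table of comparisons gave a step-up false discovery rate, a kind of adjusted p-value, and a ratio of group means for each pair, per the file headers; its ratios run as Nestin+ or CD133+ over CD133+Nestin+ and as Nestin+ over CD133+, and none is printed.

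Groups and replicate numbers came from the titles, and nothing says that libraries came from separate animals, so p-values reflect only how far these samples differ, which can be technical variation. Genes at 1 CPM in at least 3 libraries were kept (16143), and log2(CPM + 1) was fitted for all 3 groups together in limma 3.58.1 (R 4.3.3) with a trended and robust prior. The procedure was checked on simulated data with independent noise in each library. That check held no effect of the replicate number, so it cannot speak for paired libraries such as these. Deviations from group means correlated at 0.204 to 0.73 in the 9 pairs with the same number and -0.527 to 0.314 in the 18 others. The title's sort number, equal to the passage, was taken as pairing. Blocked values are printed where they change a call among the 40 genes, and for only some genes of the pathway lists. Alternatives were the block, a pseudocount of 0.1, no filter, median centring, quantile normalization, library weights, no trend or robust prior, sorts 2 and 3 only and leaving out each library. The block without CD133+Nestin+ replicate 2 was added after seeing the data.

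The genes and lists were chosen with earlier results of these data known. Every called gene was named with its values, with the highest uncalled gene of each role and up to 4 called genes per pathway list; genes called only with the block, and Chst14, Sdc1, Sdc2 and others given as ranges, were named after their values were seen, as were Ncan, Cspg4, Vcan, Ptprz1, Nrp1, the 4 uncalled linkage region genes and the ratios. Positions and exon lengths are from GENCODE M21 (GRCm38), in which all 41 symbols were found. Of these, 32 had a RefSeq promoter entry. The 3-read level covers counting error only. Not every result of the pathway lists is reported here. Figures were drawn with matplotlib 3.10.9.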

Additional observations from a re-analysis of the deposited data

How the results depend on the processing

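The 11 called changes of single genes kept their direction in every fit, and all 11 stayed called with quantile normalization, median centring, library weights, a pseudocount of 0.1, no filter, no trend or robust prior and the replicate block, which also ended no other call. With only sorts 2 and 3, 6 did, in a fit that had fewer samples and none of passage 1. Counts of calls among the 40 genes, in the order CD133+Nestin+ versus Nestin+, CD133+Nestin+ versus CD133+ and Nestin+ versus CD133+, were 1, 3 and 7. They were 2, 5 and 13 with the block (all genes: 983, 776 and 3094 in place of 505, 390 and 1915). With the block and without CD133+Nestin+ replicate 2 they were 6, 4 and 22 (all genes 1324, 807 and 4916), and with sorts 2 and 3 only 0, 1 and 7. Library weights gave 20 in the third comparison (all genes 711 in the second and 4182 in the third). Leaving out 1 library gave 0 to 2, 0 to 4 and 3 to 11 of the 40 genes, and 172 to 664, 131 to 470 and 1082 to 2763 of all genes. The causes of these differences were not tested. In Nestin+ versus CD133+ the genome-wide split of 395 higher and 1520 lower was 587 and 1300 with median centring and 696 and 1370 with quantile normalization, shifting the all-gene median by 0.135 and 0.148 on the log2 scale. In CD133+Nestin+ versus CD133+ the split of 48 higher and 342 lower was 75 and 312 with median centring and 77 and 305 with quantile normalization, with shifts of 0.128 and 0.119. Of the 22 called changes of other pathway genes none reversed. Without a filter Cspg4 (CD133+Nestin+ versus Nestin+) and Ptprz1 were not called, with a pseudocount of 0.1 Dse and Ptprz1, and with library weights Cspg4. With only sorts 2 and 3 Dse, Vcan and, in CD133+Nestin+ versus CD133+, Hspg2 were not called. The estimate of library weights stopped before it converged. Below about 0.1 CPM, or 3 reads, levels such as those of Hs3st4 cannot be compared.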
